A study of Mus musculus with 12 samples.

Results

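The Iroquois homeobox genes Irx1 to Irx6 were followed across mesenchyme of the developing mouse lower urinary tract. The 6 genes were chosen by name, with the RNA levels measured in these 4 groups already known to differ between bladder and urethra. Their levels and differences are therefore a description and carry no test. Where a member is said to be past the threshold used for all genes, this gives its place in that fit only. It is not evidence for a difference. They are 6 of the 55228 genes in the count tables, and 4 of them (Irx1, Irx2, Irx3 and Irx5) passed the low-count filter that left 18805 genes to be tested. The samples were bladder mesenchyme and urethral mesenchyme of wildtype CD-1 female embryos at embryonic day E14.5 and at E18.5, with 3 libraries in each of the 4 groups and 12 libraries in all. No animal was treated. Each library held tissue pooled from the females of 1 litter, the litters were independent, and the mesenchyme had been peeled from the epithelium with forceps after trypsin. The labels do not say whether a bladder and a urethral library of the same number share a litter. The urethral tissue was the part next to the bladder, so the values do not describe the rest of the urethra, and they do not describe males.

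Iroquois proteins are transcription factors of the TALE class, named for a loop of 3 extra amino acids inside the homeodomain, the part that binds DNA. In mammals the genes sit in a pair of clusters, IrxA and IrxB, which arose by duplication and share a long span of regulatory DNA between the genes of each cluster. They are known for dividing embryonic tissues into territories, among them the neural tube, heart, limb, gonad and kidney, and neighbouring members of a cluster are often transcribed in overlapping places. IrxA lies on chromosome 13 and holds Irx1, Irx2 and Irx4, and IrxB lies on chromosome 8 and holds Irx3, Irx5 and Irx6.

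Members of such a family can share reads, so their transcripts (GENCODE M21, GRCm38) were compared before their levels were read. The 63 codons in which the 6 genes are most alike lie in the homeodomain-coding part, and the 60 bases shown are a stretch of it that encodes the same 20 residues in each of the 6 genes. It is shown for the 4 genes with reads to compare, with bases that differ from Irx2 in capitals.
Irx2 (chr13:72630724-72630783, + strand): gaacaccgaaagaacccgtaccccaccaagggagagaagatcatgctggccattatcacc
Irx5 (chr8:92359687-92359746, + strand): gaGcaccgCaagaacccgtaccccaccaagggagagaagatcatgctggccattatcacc
Irx1 (chr13:71960061-71960120, - strand): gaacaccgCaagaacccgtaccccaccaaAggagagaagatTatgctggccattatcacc
Irx3 (chr8:91800565-91800624, - strand): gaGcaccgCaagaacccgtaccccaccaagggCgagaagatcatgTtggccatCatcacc
Irx5 differed from Irx2 at 2 of these 60 bases, Irx1 at 3 and Irx3 at 5. Over the surrounding 63 codons, Irx5 encoded the same residue as Irx2 at 63 of 63 positions, Irx3 at 59 and Irx1 at 58. Reads were 100 bases long and came in pairs, and no window of 100 bases was identical between any 2 of the 6 genes. The longest identical run among the 4 abundant members was 65 bases, between Irx2 and Irx5, and the longest of any pair was 88 bases, between Irx3 and Irx6.

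Counts per library came to between 21495169 and 36349777. Levels are given as CPM, counts divided by the library total in units of 1000000, after scaling by the trimmed mean of M-values (TMM), and as CPM per kb of summed exon length where genes are compared with each other. A count of 3, taken as the detection floor of 1 library, was worth 0.0761 to 0.161 CPM, which covers counting error only. The 7 mesenchymal markers (Col1a1, Pdgfra, Vim and others) summed to 18879 to 25236 CPM in E14.5 bladder and 7814 to 11907 in E14.5 urethra. At E18.5 they summed to 27352 to 32830 CPM in bladder and 15822 to 17749 in urethra. They did not all differ in the same direction. By edgeR (adjusted p under 0.05), 5 were higher in bladder and 2 in urethra at E14.5, and 3 and 2 at E18.5. Of all genes, 24.9% and 34.8% were called in either direction. Markers of other cells were present too: the 18 epithelial markers summed to 332 to 1852 CPM in E14.5 bladder, 972 to 2228 in E14.5 urethra, 10879 to 14513 in E18.5 bladder and 4029 to 5991 in E18.5 urethra. In both E14.5 groups replicate 1 had the highest epithelial, skeletal muscle, smooth muscle, neuronal and glial marker sums. In E14.5 bladder its skeletal muscle sum of 265.5 CPM was mostly Acta1 (237.9 CPM), while Myod1 ranged only from 0.549 to 0.692 CPM in that group. In both groups the score of replicate 1 on principal component 1 was the closest of its group to the later stage. The members' differences and the cluster sums are therefore given without it as well where they moved.

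Irx2 was the most abundant member in urethral mesenchyme. Its summed exons are 3282 bases long and the gene spans chr13:72628820-72634198 on the plus strand. In E14.5 urethra it stood at 30.7, 11.6 and 14.9 CPM in replicates 1 to 3, and in E14.5 bladder at 0.777, 0.166 and 0.260 CPM. In E18.5 urethra it stood at 19.9, 15.7 and 25.0 CPM, and in E18.5 bladder at 0.336, 0.805 and 0.160 CPM. The lowest urethral library was thus far above the highest bladder library at both stages, while the stages overlapped within each compartment. The log2 difference, bladder minus urethra, was -5.58 ± 0.62 (SE, n = 3 per group) at E14.5 and -5.65 ± 0.61 at E18.5, 47.7-fold and 50.1-fold lower in bladder. These sizes moved with single libraries: the first was -6.47 without E14.5 bladder replicate 1 and -5.05 without E14.5 urethral replicate 1, and the second was -6.35 without E18.5 bladder replicate 2. The change of that difference between the stages was -0.07 ± 0.86, and from -0.77 to 0.81 with 1 library left out.

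Irx1 (chr13:71957921-71963723, minus strand, 2620 exon bases) comes first in the same cluster. Its lower coordinate lies 670899 bases before that of Irx2. It was read at 7.49, 2.70 and 1.84 CPM in E14.5 urethra and at 3.45, 1.80 and 4.50 CPM in E18.5 urethra. In bladder it had 18, 2 and 9 counts at E14.5 (0.823, 0.0829 and 0.389 CPM) and 0, 4 and 0 counts at E18.5. The compartments did not overlap at either stage, and 2 of the 3 E18.5 bladder libraries held no Irx1 read. The log2 difference was -3.22 ± 0.83 at E14.5 and -5.78 ± 1.08 at E18.5. The first was -4.08 without E14.5 bladder replicate 1, -2.40 without E14.5 urethral replicate 1 and -3.27 without both, and the second was -5.08 without E18.5 bladder replicate 3. The E18.5 value rests on the 4 counts of bladder replicate 2: without it the bladder sum is 0 against 334 urethral counts, so that Irx1 was at least 65.9-fold higher in urethra against a floor of 3 counts over the group. At E14.5 Irx1 was past the threshold of adjusted p 0.05 in the fit across all genes, and it was not without bladder replicate 2 (log2 difference -2.72) or bladder replicate 3 (-3.15).

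Irx4, the third IrxA gene (chr13:73260479-73269608, plus strand), is known for its role in the ventricles of the heart. It had 2, 2 and 0 counts in E14.5 bladder, 0, 2 and 0 in E14.5 urethra, 0, 0 and 8 in E18.5 bladder and 0 in each E18.5 urethral library. It failed the low-count filter, and no difference between groups was detectable at this depth. Only bladder replicate 3 at E18.5, at 0.256 CPM, rose above the floor of 3 counts.

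**Figure D1:**
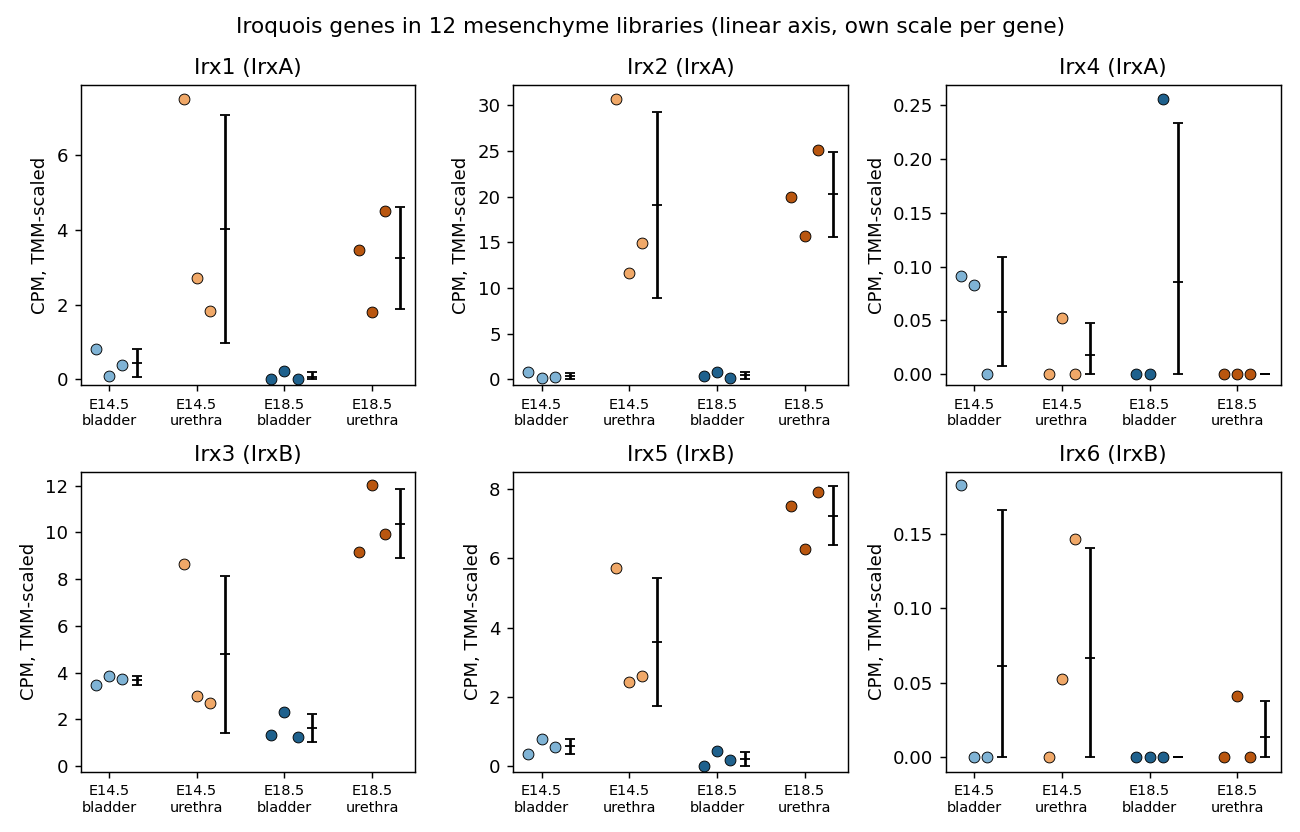
CPM (linear axes, each gene with its own scale) of the 6 Iroquois genes in each library; points are replicates 1 to 3 from left to right, and the bar with whiskers is the mean ± SD of 3 libraries, with the lower whisker stopped at 0. Urethral libraries lie above bladder libraries for Irx1, Irx2 and Irx5 at both stages and for Irx3 at E18.5, while Irx4 and Irx6 stay under 0.3 CPM.

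A non-coding RNA begins beside Irx2 on the opposite strand. Gm20554, a long intergenic RNA, spans chr13:72626213-72628564 and runs away from Irx2, leaving 255 bases between the 2 starts. The 250 bases before Irx2, read on its strand from RefSeq (GRCm38.p6), fill nearly this whole gap and are shown since both RNAs start from it; capitals mark GC boxes (GGGCGG) and a CCAAT box.
Irx2, chr13:72628570-72628819, + strand: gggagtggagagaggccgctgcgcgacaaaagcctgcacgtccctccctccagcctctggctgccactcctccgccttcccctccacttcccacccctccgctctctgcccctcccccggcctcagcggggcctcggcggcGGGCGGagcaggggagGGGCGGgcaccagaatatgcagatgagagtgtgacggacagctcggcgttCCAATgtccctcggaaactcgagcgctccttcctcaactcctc
The window of 300 bases that also takes in 50 bases of Irx2 held 25 CpG pairs, more than 81.6% of the 32851 promoter windows of that length, and 69.0% G or C against a median of 52.7%. GGGCGG was found 2 times, both strands searched, and 35.7% of all promoter windows hold it. CCAAT was found 1 time, and 37.4% hold it. TATAAA (in 13.6% of windows), TGACAG, the core bound by Meis factors (19.2%), and ACANNTGT, reported as an Iroquois binding site (7.38%), are not in these letters.

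Gm20554 followed the compartments as Irx2 did. Counts were 68, 95 and 42 in E14.5 urethra against 5, 2 and 4 in E14.5 bladder, and 129, 41 and 124 in E18.5 urethra against 0, 0 and 6 in E18.5 bladder. Groups of the same stage did not overlap. The log2 difference was -3.75 ± 0.69 at E14.5 (edgeR quasi-likelihood test, adjusted p = 0.00244) and -5.17 ± 0.75 at E18.5 (edgeR adjusted p = 0.000215), and every urethral library exceeded every bladder library at each stage. At E18.5 the bladder reads were all in replicate 3; without it Gm20554 was at least 45.4-fold higher in urethra, against 3 counts over the group. The change of the difference between stages did not pass (edgeR log2 -1.43 ± 1.08, adjusted p = 0.453). The library kit was directional, but whether reads were counted by strand is not given in the sources used here; Irx2 and Gm20554 share no exon base.

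In IrxB, Irx5 (chr8:92357625-92376286, plus strand, 3127 exon bases) was higher in urethra at both stages. In E14.5 urethra it stood at 5.71, 2.43 and 2.61 CPM and in E18.5 urethra at 7.51, 6.27 and 7.92 CPM. In bladder it stood at 0.366, 0.787 and 0.562 CPM at E14.5 and at 0, 0.429 and 0.192 CPM at E18.5. The urethral libraries were above the bladder libraries at both stages, and the E18.5 urethral libraries were above the E14.5 urethral ones. The log2 difference between compartments was -2.63 ± 0.59 at E14.5 and -5.22 ± 0.68 at E18.5. Without the first replicates of both E14.5 groups the E14.5 value was -1.91, and the E18.5 value ranged from -6.09, with bladder replicate 2 left out, to -4.60, with bladder replicate 1 left out. Its change between stages, -2.59 ± 0.89, did not pass the threshold. That change was past it with DESeq2 (-2.63), without E14.5 urethral replicate 1 (-3.10), without E18.5 bladder replicate 2 (-3.47), and without the first replicates of both E14.5 groups (-3.33).

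Crnde, a long non-coding RNA best known from colorectal tumours, starts 1504 bases from Irx5 on the opposite strand (chr8:92326033-92356120). The 250 bases before its start are given to set beside the gap at Irx2, with the same letters in capitals on either strand.
Crnde, chr8:92356121-92356370, - strand: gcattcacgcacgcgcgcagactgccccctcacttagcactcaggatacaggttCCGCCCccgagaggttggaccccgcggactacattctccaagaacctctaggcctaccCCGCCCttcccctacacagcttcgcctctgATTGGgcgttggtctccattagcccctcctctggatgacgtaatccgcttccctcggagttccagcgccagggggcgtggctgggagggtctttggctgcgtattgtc
Its window of 300 bases held 22 CpG pairs, more than 76.9% of all windows, and GGGCGG 3 times. No ACANNTGT, TATAAA or TGACAG was found in these letters. Counts of Crnde were 33, 64 and 39 in E14.5 urethra against 2, 5 and 5 in bladder, and 101, 32 and 64 in E18.5 urethra against 6, 2 and 7 in bladder. The groups did not overlap at either stage. The log2 difference was -3.04 ± 0.46 at E14.5 (edgeR adjusted p = 0.000803) and -3.30 ± 0.45 at E18.5 (edgeR adjusted p = 0.000136), with 3 of 3 urethral libraries above the bladder libraries each time. Its change between stages was -0.26 ± 0.67 (edgeR adjusted p = 0.857), and whether it differed from the change of Irx5 was not tested.

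Irx3 overlapped between the compartments at E14.5 and separated them at E18.5. This gene (chr8:91798525-91802067, minus strand, 2762 exon bases) is known in body-weight genetics because enhancers inside the neighbouring Fto gene act on it. It stood at 3.47, 3.85 and 3.72 CPM in E14.5 bladder, closely grouped, and at 8.66, 2.98 and 2.72 CPM in E14.5 urethra. Of the 3 E14.5 urethral libraries, 2 therefore lay under all 3 bladder libraries. In E18.5 urethra it stood at 9.16, 12.1 and 9.94 CPM and in E18.5 bladder at 1.34, 2.31 and 1.25 CPM, with no overlap. The log2 difference was -0.37 ± 0.40 at E14.5, within the spread of the libraries, and it turned to 0.37 without urethral replicate 1. At E18.5 it was -2.68 ± 0.43.

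The compartment difference of Irx3 changed by -2.31 ± 0.58 on the log2 scale between the stages. Irx3 was past the threshold for that change in the fit over all genes, which is a description, since its levels were known beforehand. Its level in bladder was lower at E18.5 (log2 difference from E14.5 of -1.19 ± 0.42, past the threshold), and its level in urethra was 1.12 ± 0.40 higher on that scale, which did not pass. That rise in urethra was past it with DESeq2 (1.15), with limma-voom (1.33), with no filter on low counts (1.13) and without E14.5 urethral replicate 1 (1.86). Without the first replicates of both E14.5 groups the change was -3.08 and the E14.5 difference 0.39. The change was past the threshold in 5 of the 12 fits that each left out 1 library, with values from -3.05 to -2.03. The 7 fits that lost it left out E14.5 bladder replicate 2 (-2.28) or 3 (-2.30), E14.5 urethral replicate 3 (-2.03), E18.5 bladder replicate 1 (-2.19) or 3 (-2.14), or E18.5 urethral replicate 2 (-2.19) or 3 (-2.34). The lower bladder level at E18.5 was past it in 7 of 12 such fits, but the fits without a urethral library kept every bladder library compared. The call was lost without E14.5 bladder replicate 1 (-1.22), 2 (-1.16) or 3 (-1.18) and without E18.5 bladder replicate 1 (-1.07) or 3 (-1.02). Of the fits without a bladder library, only that without E18.5 bladder replicate 2 kept it.

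Irx3os, an antisense RNA (chr8:91800415-91807539, plus strand), shares 124 exon bases with Irx3, 4.49% of the exon length of Irx3. It had 9, 18 and 5 counts in E14.5 urethra against 0, 3 and 2 in bladder, and 28, 13 and 27 in E18.5 urethra against 4, 5 and 4 in bladder. The log2 difference was -2.16 ± 0.73 at E14.5 (edgeR adjusted p = 0.0464) and -1.94 ± 0.60 at E18.5 (edgeR adjusted p = 0.0247). The E14.5 call was lost in each of the 12 fits without 1 library (adjusted p up to 0.137) and in the fit with a replicate block (0.0850). The E18.5 call was lost without bladder replicate 1 (0.0877) or 3 (0.104) or urethral replicate 1 (0.0710) or 3 (0.0833). Where strands were not kept apart in counting, reads of the shared bases cannot be assigned to 1 of the 2 genes.

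Irx6 (chr8:92674288-92680956, plus strand) closes IrxB and was near absent. It had 4, 0 and 0 counts in E14.5 bladder, 0, 2 and 4 in E14.5 urethra, 0 in each E18.5 bladder library and 0, 1 and 0 in E18.5 urethra, and failed the filter. The predicted genes that overlap a member or have an end within 5 kb of one, besides those described, were Gm45505 at Irx6, Gm40999 at Irx1, Gm36380 at Irx3 and Gm48000 at Irx4. These 4 had 0 counts in the 12 libraries.

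**Figure D2:**
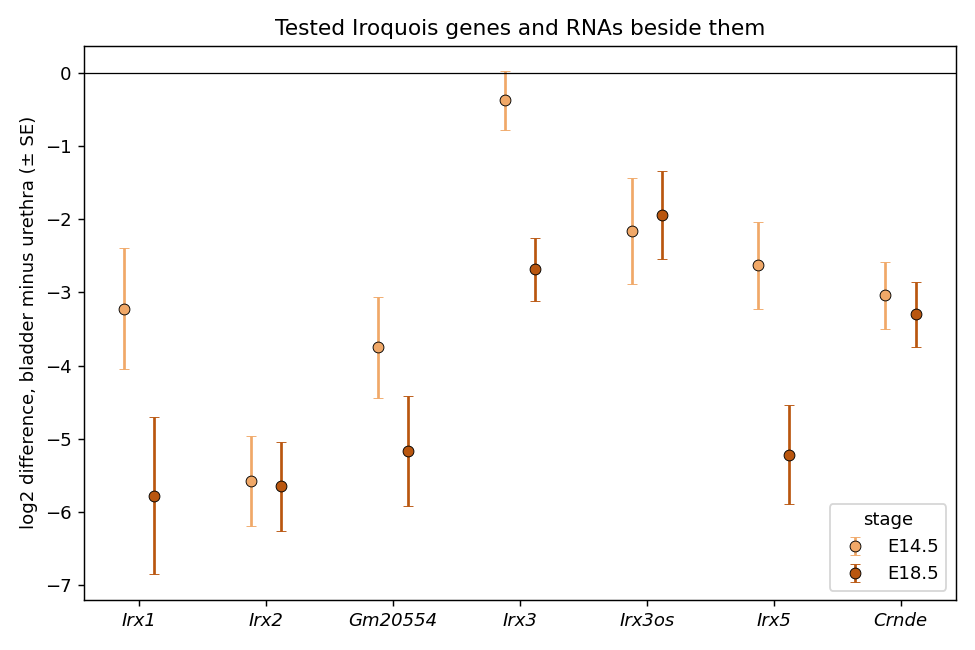
Log2 difference between bladder and urethral mesenchyme (bladder minus urethra, ± SE of the fit, 3 libraries per group) for the tested Iroquois genes and the non-coding RNAs beside them, at both stages. Irx3 moved from -0.37 to -2.68, while Irx2 stayed at -5.58 and -5.65 and Crnde at -3.04 and -3.30.

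Of the 4 members tested, 3 were past the threshold at E14.5, each higher in urethra, where 12.5% of all tested genes were past it in that direction and 24.9% in either. At E18.5 all 4 tested were past it, each higher in urethra, against 16.2% of all genes in that direction and 34.8% in either. The libraries of the compartments did not overlap for 3 of 4 members at E14.5 and 4 of 4 at E18.5, against 37.7% and 52.1% of all tested genes in either direction. For the change of the compartment difference, 1 of 4 was past the threshold towards urethra, against 4.03% of genes in that direction and 8.67% in either. Nothing is read from these counts, since the same differences led to the choice of the family. Between the stages, in bladder 1 of 4 was past the threshold, lower at E18.5, against 22.0% in that direction and 45.7% in either. In urethra none of the 4 was past it with edgeR, against 24.4% of genes; 1 had an unadjusted p under 0.05, and DESeq2 called 1 and limma-voom 2. Stages did not overlap for Irx3 in bladder (1 of 4 members, 55.8% of genes) and for Irx3 and Irx5 in urethra (2 of 4, 44.0% of genes).

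Per exon length, the family was led by different genes in the compartments. In bladder Irx3 made up 72.8% of the summed level of the 6 genes at E14.5 (62.4% to 79.2% over the 3 libraries) and 71.8% at E18.5 (64.3% to 82.6%). In urethra Irx2 led, with 57.7% at E14.5 (54.4% to 63.9%) and 45.4% at E18.5 (40.4% to 49.3%). The IrxA genes together held 16.2% in E14.5 bladder and 21.6% in E18.5 bladder, against 71.95% in E14.5 urethra and 54.3% in E18.5 urethra. The level itself differed too. IrxA summed to 7.34 ± 4.22 CPM per kb in E14.5 urethra and 7.41 ± 1.93 in E18.5 urethra (SD, n = 3). IrxB summed to 2.90 ± 1.79 CPM per kb in E14.5 urethra and 6.08 ± 0.333 in E18.5 urethra. Replicate 1 carried much of both E14.5 sums, with 12.2 CPM per kb for IrxA against 4.59 and 5.23 in replicates 2 and 3, and 4.96 for IrxB against 1.87 and 1.86. Without it the E14.5 means were 4.91 for IrxA and 1.87 for IrxB, so whether IrxA was level between the stages depends on that library. In bladder IrxB summed to 1.53 ± 0.109 CPM per kb at E14.5 and 0.658 ± 0.273 at E18.5. The share of Irx4 in E18.5 bladder, 4.96%, comes from the 8 counts of 1 library.

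**Figure D3:**
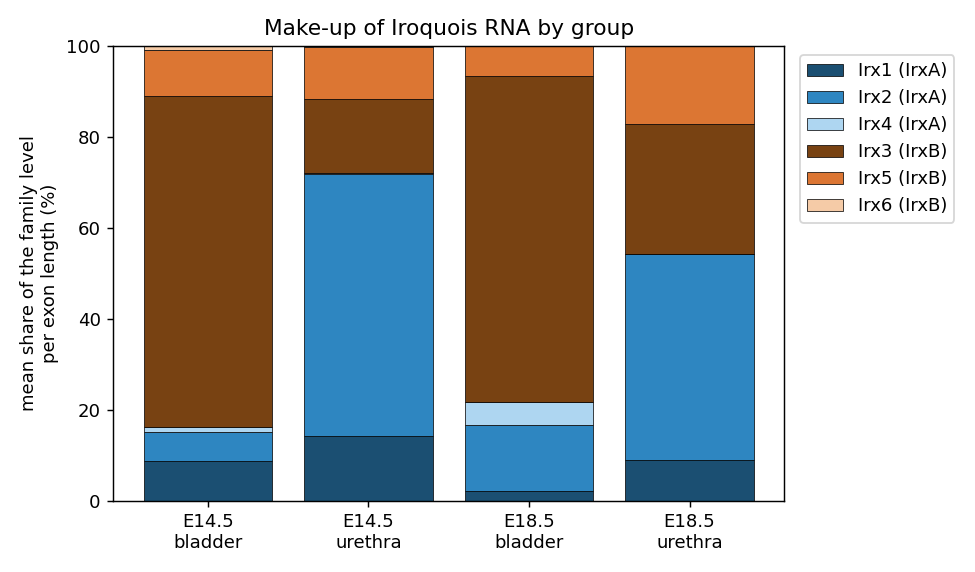
Mean share (percent, linear axis from 0) of each Iroquois gene in the summed CPM per kb of the 6 genes, averaged over 3 libraries per group. Irx3 fills 72.8% and 71.8% of the bladder bars, and Irx2 fills 57.7% and 45.4% of the urethral bars.

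Across the 12 libraries the members were compared by Pearson's r of log2 CPM (prior count 2), as a description: the libraries share group differences and depth. Irx1 and Irx2 had r = 0.929, and 0.900 after the mean of each group was removed. Irx2 and Irx5 had r = 0.887, which fell to 0.243 once group means were removed. Irx3 and Irx5 had r = 0.877 and 0.609, Irx1 and Irx3 r = 0.795 (Spearman's rho 0.662) and 0.566, Irx2 and Irx3 0.723 and 0.567, and Irx1 and Irx5 0.902 and 0.398. With group means removed the IrxA pair had the highest r of the 6 pairs, while the IrxB pair lay close to 2 pairs from different clusters. E14.5 urethral replicate 1 had the highest level of Irx1, Irx2, Irx3 and Irx5 in its group. Without it the values after group means were 0.874 for the IrxA pair, 0.574 for the IrxB pair, and from 0.077 to 0.405 for the pairs from different clusters. Irx2 and Gm20554 had r = 0.915 but -0.077 without group means, and Irx5 and Crnde 0.859 but -0.235.

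Other genes followed the members closely over the same libraries, among 13883 genes ranked. Glis3, a Krüppel-like zinc-finger factor, was nearest to Irx2 with r = 0.986, followed by B3galt5 (0.979), Cacna2d3 (0.978), Adamts18 (0.977) and Slc49a4 (0.975). Nearest to Irx1 were Tnfsf13b, which encodes the cytokine BAFF (0.984), Tsc22d1 (0.971), Dpp10 (0.960), Col26a1 (0.960) and Grin3a (0.958). Nearest to Irx5 were Klhl13 (0.965), the Notch target Hey1 (0.962), Krt1 (0.962), the serotonin receptor gene Htr2a (0.960) and Arhgef38 (0.947). Nearest to Irx3 were genes of skeletal muscle among others. They were Myod1, the master regulator of skeletal muscle (0.957), Adora2a (0.954), Cdh15, a cadherin of muscle precursors (0.947), Myl6b (0.942) and Sim2 (0.940). By Spearman's rho Myod1 ranked 51st for Irx3 and Cdh15 4th, so the order within these lists depends on the measure.

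Markers of skeletal muscle and of neurons differed between the compartments as well. All 9 skeletal muscle markers were past the threshold at E18.5, where 34.8% of all genes were, 6 higher in urethra and 3 in bladder (edgeR). The muscle regulators were in the first set: Myod1 averaged 40.3 CPM in E18.5 urethra and 0.0571 in bladder (edgeR log2 -9.47 ± 1.19, adjusted p = 0.000153), and Myog averaged 122 and 0.264 CPM. At E14.5 Myod1 averaged 4.16 CPM in urethra and 0.607 in bladder (edgeR log2 -2.75 ± 0.86, adjusted p = 0.0391), a call that held in 2 of 12 fits without 1 library (adjusted p up to 0.153). The summed list moved the other way, from 719 to 1103 CPM in E18.5 urethra and from 2970 to 4784 in E18.5 bladder, with Acta1, Ckm and Tnnt3 higher in bladder. Myf6 had no count in the 3 E18.5 bladder libraries. The 6 neuronal markers (Tubb3, Elavl4, Th, Dbh and Stmn2 among them) were all higher in urethra at both stages by edgeR. Of all genes, 12.5% were called higher in urethra at E14.5 and 16.2% at E18.5. The neuronal sums were 378 to 594 CPM in E14.5 urethra and 50.4 to 244 in E14.5 bladder. At E18.5 they were 370 to 985 in urethra and 35.0 to 78.9 in bladder. The E14.5 calls of Tubb3 and Stmn2 held in 3 and 2 of 12 fits without 1 library. No neuronal marker was at 0 throughout a group. The neuronal sum had r = 0.907 with Irx1, 0.906 with Irx2, 0.765 with Irx3 and 0.877 with Irx5 over the 12 libraries, and 0.429, 0.414, 0.142 and 0.034 without group means. The skeletal muscle sum had r of -0.333, -0.150, -0.102 and -0.279 with these members, and 0.625, 0.756, 0.584 and 0.101 without group means. In E18.5 bladder Acta1 averaged 3166 CPM of the 4050 in this sum, while Myod1 averaged 0.0571. The sum therefore does not follow the muscle regulators, and its r cannot be set against the likeness of Irx3 to Myod1 and Cdh15. The 6 smooth muscle markers (Acta2, Myh11, Tagln, Cnn1, Des and Actg2) were higher in bladder for 5 of 6 at E14.5 and 6 of 6 at E18.5 (edgeR). Of all genes, 24.9% and 34.8% were called in either direction at these stages. The smooth muscle sums were 6110.4 to 8156 CPM in E14.5 bladder and 1564 to 3460.2 in E14.5 urethra. At E18.5 they were 21640.1 to 40369.7 in bladder and 2403 to 2698 in urethra. They had r of -0.834, -0.777, -0.695 and -0.858 with Irx1, Irx2, Irx3 and Irx5. Without group means r was 0.625, 0.834, 0.763 and 0.265, higher for each of these 4 genes than the neuronal values. E14.5 urethral replicate 1 had the highest level of these 4 genes in its group and the highest smooth muscle (3460.2 CPM) and neuronal (594 CPM) sums. The r with marker sums were not recomputed without it, so this order may rest on that library. The part of muscle cells, neurons and epithelium in the Iroquois levels was not tested, and in these bulk libraries fewer cells of a type and less RNA per cell cannot be told apart.

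**Figure D4:**
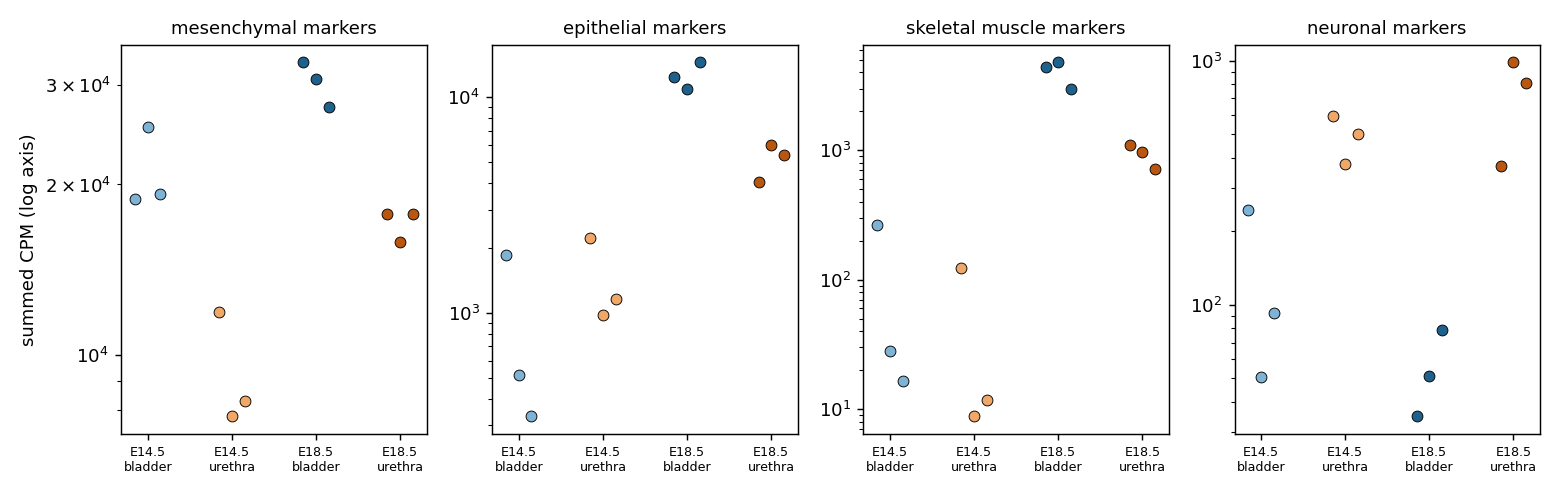
Summed CPM (log axes) of the mesenchymal, epithelial, skeletal muscle and neuronal marker lists in each library, replicates 1 to 3 from left to right in each group. Neuronal sums are higher in urethra at both stages, and replicate 1 is the highest E14.5 library of its group for the epithelial, skeletal muscle and neuronal lists.

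The differences were next read along the chromosome, in the span from 1 Mb before to 1 Mb after each cluster. It holds 117 other genes, 44 around IrxA and 73 around IrxB, of which 34 were tested (18 and 16) while 17 and 31 had no count. At E14.5, 8 of 34 were past the threshold, 2 higher in bladder and 6 in urethra (median log2 difference -0.16), where 24.9% of all genes were. At E18.5, 16 of 34 were, 10 higher in bladder and 6 in urethra (median 0.09), where 34.8% of all genes were. Without E14.5 bladder replicate 3 the first count was 5, and without E18.5 urethral replicate 1 the second was 10. The neighbours thus went in both directions. Among them, the 3 RNAs that start beside or overlap a member (Gm20554, Crnde and Irx3os) were each higher in urethra at both stages. These 3 are included in the urethral counts of both stages.

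Around IrxA the largest differences other than Gm20554 were towards bladder. Trip13, an ATPase of the mitotic checkpoint, was higher in E14.5 bladder (edgeR log2 0.90 ± 0.18, adjusted p = 0.00365). The amino acid transporter gene Slc6a18 was higher in E18.5 bladder (log2 4.60 ± 0.96, edgeR adjusted p = 0.00373), and so was the predicted gene Gm15912 (log2 3.52 ± 0.52, edgeR adjusted p = 0.000243). Gm10263, the nearest tested gene outside Irx4 at 48236 bases, was higher in bladder by log2 0.68 ± 0.18 at E14.5 (edgeR adjusted p = 0.0180, called in 10 of 12 fits without 1 library) and 0.55 ± 0.18 at E18.5 (0.0341, called in 7 of 12). No gene on the outer side of Irx1 in this span passed the filter.

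Around IrxB, 5 of 16 tested neighbours were past the threshold at E14.5, each higher in urethra, where 24.9% of all genes passed in either direction. At E18.5 4 were higher in urethra and 1 in bladder (edgeR), where 34.8% of all genes passed. Crnde and Irx3os are among the neighbours called at both stages. Aktip was higher in urethra at E14.5 (edgeR log2 -0.54 ± 0.13, adjusted p = 0.00862) and in bladder at E18.5 (0.44 ± 0.12, 0.0157, held in 10 of 12 fits without 1 library), and its change passed (0.98 ± 0.18, edgeR adjusted p = 0.00630). Mmp2, a matrix metalloproteinase gene, was higher in urethra at E18.5 (edgeR log2 -0.75 ± 0.20, adjusted p = 0.0109, and up to 0.0540 with 1 library left out). Slc6a2, the noradrenaline transporter of sympathetic neurons, had a log2 difference of -2.18 ± 0.60 at E14.5 (edgeR adjusted p = 0.0205) and -4.29 ± 0.61 at E18.5 (edgeR adjusted p = 0.000179). It lies 279123 bases beyond Irx6, and the neuronal markers named earlier, Th and Dbh among them, were higher in the same libraries; their part in it was not tested. Its E14.5 call was lost without bladder replicate 3 (log2 -1.69, edgeR adjusted p = 0.0645) or urethral replicate 3 (-2.04, 0.0590). Ces1d, a carboxylesterase gene, had a log2 difference of -3.62 ± 0.88 at E14.5 (edgeR adjusted p = 0.0118) and -1.75 ± 0.91 at E18.5 (0.163). Fto, which lies 130086 bases from Irx3, had log2 differences of -0.01 at E14.5 (edgeR adjusted p = 0.971) and -0.02 at E18.5 (0.955). The nearest tested genes outside the cluster, Gm9619 beyond Irx3 and Gm3272 beyond Irx6, did not pass at either stage (edgeR adjusted p of 0.832 and 0.415, and of 0.491 and 0.353).

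**Figure D5:**
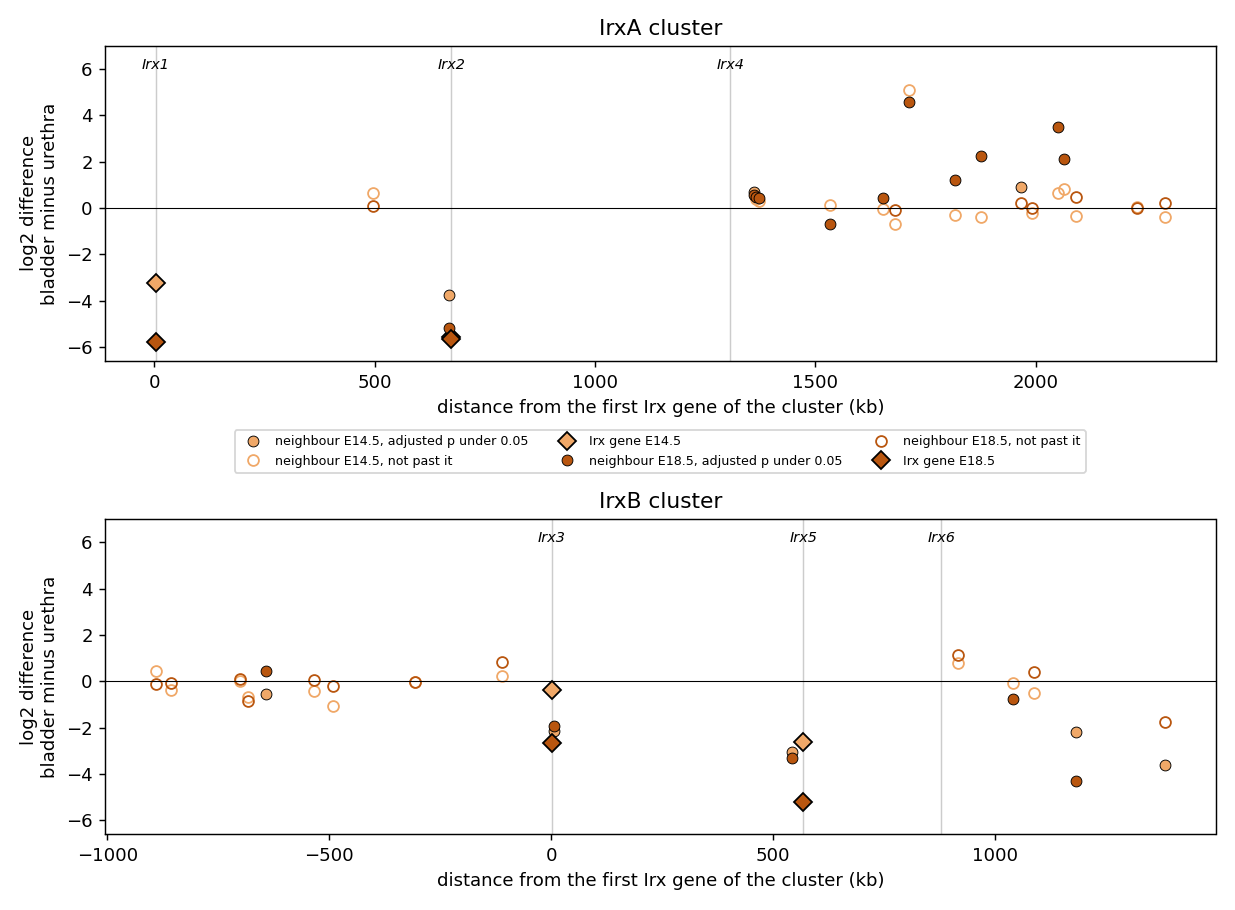
Log2 difference between bladder and urethra (bladder minus urethra) of tested genes against their distance in kb from the first Iroquois gene of each cluster; diamonds are Iroquois genes, circles are neighbours, and filled circles are past adjusted p 0.05. The circles beside Irx2 and Irx5 are Gm20554 and Crnde, at -3.75 and -3.04 at E14.5.

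Among the 12 other TALE homeobox genes, which include the Meis and Pbx partners of Hox proteins, 1 was higher in bladder and 3 in urethra at E14.5 (median log2 difference -0.15; all genes -0.004), and 2 and 5 at E18.5 (median -0.23; all genes 0.047). In either direction that is 4 and 7 of 12, where 24.9% and 34.8% of all genes were called. Mkx, or Mohawk, the factor nearest to the Iroquois proteins in its class and known for tendon, went furthest. Its level was 13.8, 8.08 and 9.0 CPM in E14.5 urethra against 1.74, 0.953 and 2.12 in bladder, and 15.9, 11.6 and 11.3 CPM in E18.5 urethra against 2.50, 2.90 and 2.11 in bladder. The compartments did not overlap, with log2 differences of -2.68 ± 0.32 (edgeR adjusted p = 0.000223) and -2.37 ± 0.31 (edgeR adjusted p = 0.000115). Across libraries Mkx had r = 0.962 with Irx2, and 0.631 without group means; 17 ranked genes were nearer to Irx2.

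The other TALE calls were smaller. Pknox2 was higher in urethra at E14.5 (edgeR log2 -0.78 ± 0.18, adjusted p = 0.00761) and at E18.5 (-1.16 ± 0.18, 0.000324), and Tgif1 at E14.5 (edgeR log2 -0.45 ± 0.11, adjusted p = 0.0108). For Meis2 and Tgif2 the difference changed between the stages. Meis2 averaged 345 CPM in bladder and 312 in urethra at E14.5 (edgeR adjusted p = 0.326) but 109.9 and 249 at E18.5 (log2 -1.18 ± 0.10, edgeR adjusted p = 7.69e-06), and the change of -1.32 ± 0.14 passed (edgeR adjusted p = 0.00102). Tgif2 averaged 89.2 CPM in bladder and 121.5 in urethra at E14.5 (log2 -0.45 ± 0.17, edgeR adjusted p = 0.0712, but 0.0286 with the replicate block and 0.0396 without bladder replicate 3). Its log2 difference was -1.38 ± 0.17 at E18.5 (edgeR adjusted p = 8.19e-05) with a change of -0.93 ± 0.24 (edgeR adjusted p = 0.0321), which held in 3 of 12 fits without 1 library (adjusted p up to 0.0815). Meis1 went the other way, higher in bladder by log2 0.45 ± 0.11 at E14.5 (edgeR adjusted p = 0.0133, and 0.0573 without bladder replicate 2) and 0.31 ± 0.11 at E18.5 (edgeR adjusted p = 0.0480). The E18.5 call of Meis1 held in 3 of 12 fits without 1 library (adjusted p up to 0.153), and with the replicate block it had an adjusted p of 0.0522. Pbx3 was higher in bladder at E18.5 (edgeR log2 0.53 ± 0.15, adjusted p = 0.0128), a call lost in 2 of 12 fits without 1 library (adjusted p up to 0.0596). The most abundant without a call at E18.5 was Pbx2, at 94.4 and 101 CPM (edgeR log2 -0.10 ± 0.10, adjusted p = 0.488).

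Of 7 genes reported in other tissues as targets or partners of Iroquois factors, 1 was higher in bladder and 5 in urethra at E14.5 (median log2 difference -0.53), where 24.9% of all genes were called in either direction. At E18.5, 2 were higher in urethra (median 0.14), where 34.8% were called. Kcnd2, a potassium channel subunit reported as repressed by Irx5 in heart, averaged 16.3 CPM in urethra and 6.59 in bladder at E14.5 (edgeR log2 -1.30 ± 0.39, adjusted p = 0.0291). At E18.5 it averaged 14.3 and 2.03 CPM (edgeR log2 -2.83 ± 0.42, adjusted p = 0.000266), and Irx5 too was higher in urethra at both stages. Cxcl12, a chemokine gene, was higher in urethra at both stages (edgeR log2 -0.53 ± 0.15, adjusted p = 0.0242, and -0.96 ± 0.15, adjusted p = 0.000442). Gata3 (edgeR log2 -1.18 ± 0.32, adjusted p = 0.0217), Tbx5 (-0.91 ± 0.23, 0.0138) and Gja1 (-0.40 ± 0.13, 0.0401) were higher in urethra at E14.5, and the gap junction gene Gja5 in bladder (0.69 ± 0.20, 0.0250). Trps1 passed at neither stage. Each of the 6 calls at E14.5 was lost in 2 to 7 of the 12 fits without 1 library, and both calls at E18.5 held in all 12. None of the 7 passed for the change between stages (edgeR), where 5 had an unadjusted p under 0.05, DESeq2 called 2 and limma-voom 1; with the replicate block Gata3 did (adjusted p = 0.0137).

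Signals reported upstream of Iroquois genes, a list of 26 genes of the Hedgehog, retinoic acid, Wnt, Fgf and Bmp pathways, were read in the same way. At E14.5, 13 were higher in urethra and 0 in bladder by edgeR (median log2 difference -0.69), and at E18.5, 10 and 2 (median -0.32), where 12.5% and 16.2% of all genes were higher in urethra; the list as a whole was not tested. In E14.5 bladder 1 gene of the list, Spry4, was higher with an unadjusted p under 0.05, and DESeq2 and limma-voom called 0 in that direction.

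Of the signals called at E18.5, the 3 with the largest differences belong to the retinoic acid pathway, though Wnt5a, given later, lay within the SE of the third, Rarb. Aldh1a3, which makes retinoic acid, averaged 49.5 CPM in urethra and 3.04 in bladder (edgeR log2 -4.01 ± 0.30, adjusted p = 2.91e-06). Cyp26a1, which degrades it, averaged 1.48 and 0.114 CPM (edgeR log2 -3.76 ± 0.83, adjusted p = 0.00367). The receptor gene Rarb, itself induced by retinoic acid, averaged 66.3 and 19.3 CPM (edgeR log2 -1.78 ± 0.16, adjusted p = 9.64e-06). At E14.5 Rarb was past the threshold too (-1.11 ± 0.16, edgeR adjusted p = 0.000523). Cyp26a1 and Aldh1a3 lay just outside it with edgeR (log2 -2.06 ± 0.71, adjusted p = 0.0507, and -0.78 ± 0.27, 0.0542), and were called with DESeq2 (0.0204 and 0.0313), Cyp26a1 with limma-voom as well (0.0417). For Aldh1a3 the change between stages passed (-3.23 ± 0.40, edgeR adjusted p = 0.00123). Aldh1a1, another enzyme that makes retinoic acid, went from one side to the other, with a change of 3.21 ± 0.62 (edgeR adjusted p = 0.00982). Its log2 difference was -1.95 ± 0.45 at E14.5 (edgeR adjusted p = 0.00945) and 1.26 ± 0.43 at E18.5 (edgeR adjusted p = 0.0403), the latter held in 6 of 12 fits without 1 library (adjusted p up to 0.138).

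Wnt5a, a secreted Wnt, was higher in urethra at both stages, 190 against 38.1 CPM at E14.5 (edgeR log2 -2.32 ± 0.25, adjusted p = 0.000142) and 197 against 58.5 CPM at E18.5 (-1.75 ± 0.25, 0.000197). Shh, the Hedgehog ligand, had a log2 difference of -1.92 ± 0.57 at E14.5 (edgeR adjusted p = 0.0321), which held in 6 of 12 fits without 1 library (adjusted p up to 0.109). Its change between the stages, 2.84 ± 0.78 (edgeR adjusted p = 0.0493), held in 2 of 12 such fits (up to 0.124). Shh is made by epithelium and stands in the epithelial marker list as well, whose sums are given earlier. Ptch1 at E14.5 and Smo at E18.5 were the most abundant without a call (edgeR log2 -0.53 ± 0.24, adjusted p = 0.132, and 0.00 ± 0.13, adjusted p = 0.984). Ptch1 was called with the replicate block (-0.59, edgeR adjusted p = 0.0305) and without bladder replicate 2 (-0.88, 0.0156). Besides Aldh1a1, the gene higher in E18.5 bladder was Id1, a Bmp target (log2 0.35 ± 0.12, edgeR adjusted p = 0.0372, held in 7 of 12 fits without 1 library, up to 0.160).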

How the data were processed

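RNA of bladder and urethral mesenchyme was sequenced as poly(A)-selected, directional libraries with paired 100-base reads, per the labels' protocols. The authors deposited raw counts per gene in 1 table for each stage; HISAT2 2.2.1, SAMtools 1.9 and the GRCm38 build are named in the submitters' processing notes, and the counting tool and its strand setting are not given in the sources used here.

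Both tables were joined over 55228 genes. Genes passing edgeR's filterByExpr (minimum count 10) were fitted with edgeR 4.0.16 (R 4.3.3; TMM scaling, robust quasi-likelihood F test, 1 model of 4 group means over 12 libraries, 8 residual degrees of freedom), with Benjamini-Hochberg adjustment over all genes tested in each of 5 comparisons and a threshold of 0.05. The members and lists were chosen with earlier results of these data known. Members are given with SE and no p; all other p are adjusted over all genes. Genes were named by rule: the largest calls of each list (3 per cluster for neighbours, 4 for other lists) and the most abundant gene not called; Spry4, Rarb at E14.5, Aktip, Mmp2, Pbx3, the muscle regulators and list members behind counts of 5 or fewer were named after their values were seen. Summed exon lengths came from the count tables. Sequences came from GENCODE M21 transcripts and RefSeq promoter windows, which hold Irx2, Irx3 and Irx4 of the members. Alternatives were DESeq2 1.42.0, limma-voom 3.58.1, median-ratio size factors, other low-count filters, fits without libraries and a replicate block. The fit was tested on simulated counts first.

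Deviations of same-numbered bladder and urethral libraries had r of 0.197, 0.193 and 0.286 at E18.5, all over 0.1, so the numbers were taken to pair those libraries. At E14.5 the same r were 0.191, -0.028 and 0.206, and the numbers were not taken as pairs. The main fit used no pairing at either stage, so its SE and adjusted p at E18.5 take the libraries as unpaired. The replicate block covered both stages, so its values for E14.5 and for the change rest in part on numbers not taken as pairs. Some single genes of the lists are not reported here.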

Additional observations from a re-analysis of the deposited data

Results flagged for a closer look

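The difference between bladder and urethral mesenchyme changed between E14.5 and E18.5 for the 12 genes listed next, among others, by the edgeR test of the change. Left aside are the Iroquois genes, genes named for their likeness to them alone, the smooth muscle markers and further genes of the lists. Among IrxA neighbours, Slc12a7 (log2 change 1.47, edgeR adjusted p = 0.00428), Nkd2 (2.63, 0.0108), Clptm1l (0.49, 0.0329) and Lpcat1 (-0.78, 0.0188) were called too. So were 2 endothelial markers towards urethra and 3 epithelial markers, Shh among them, towards bladder. Of the 12 genes, the difference moved towards urethra at the later stage for Meis2 (log2 change -1.32), Tgif2 (-0.93), Aldh1a3 (-3.23), Th (-2.8), Myod1 (-6.72) and Myog (-6.0). It moved towards bladder for Aldh1a1 (3.21), Tnnt3 (2.71), Aktip (0.98), Shh (2.84), Gm15912 (2.85) and Id1 (0.61). Of the 6 smooth muscle markers, 3 were called for the change too, each towards bladder. Of the 9 skeletal muscle markers, 3 were called towards urethra and 1 towards bladder. Of all genes, 8.67% were called in either direction. The calls of Meis2, Aldh1a3, Aldh1a1, Tnnt3 and Aktip held in all 12 fits that left out 1 library. Those of Shh and Id1 held in 2 of 12, with edgeR adjusted p up to 0.124 and 0.109, and those of Tgif2 and Gm15912 in 3 of 12, up to 0.0815 and 0.0796. Myog held in 4, Myod1 in 8 and Th in 10 of 12. With median-ratio size factors the calls of Shh (edgeR adjusted p = 0.0527) and Id1 (0.0578) were lost, with no filter on low counts those of Shh (0.148), Id1 (0.0636), Myod1 (0.0813), Myog (0.0989), Tnnt3 (0.0501) and Th (0.0517), and with the replicate block that of Id1 (0.0518).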

How the results depend on the processing

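Of the log2 differences of members under the alternatives, 355 stayed on their side of the threshold, 16 newly passed it and 14 no longer did; for the other genes tested alongside these numbers were 6175, 94 and 392, and 1 called value changed sign: the change for Ckm ran from -3.26 to 5.31 with 1 library left out, the latter called without E14.5 bladder replicate 1 (adjusted p = 0.0277). The count of members past the threshold for the change of the compartment difference was 2 with DESeq2, 2 without the first replicates of both E14.5 groups, and 0 to 2 when 1 library was left out. For stage in bladder it was 3 with DESeq2 and 0 to 3 with 1 library left out. For stage in urethra it was 1 with DESeq2, 2 with limma-voom, 1 with no filter on low counts, 2 without the first replicates of both E14.5 groups, and 0 to 1 with 1 library left out. Neighbours past it ranged from 5 to 9 at E14.5 and from 10 to 17 at E18.5 with 1 library left out. The causes were not tested. In the fit with a replicate block the change for Irx3 was -2.54, the members past the threshold numbered 3, 4 and 1 as in the fit without it, and calls it changed are given with the genes; among the other signals it ended that of Axin2 at E18.5 (adjusted p = 0.0559). The likeness of Irx1 and Irx3 moved to a rho of 0.662. Likeness and cluster sums without E14.5 urethral replicate 1 were computed after seeing the data. Bladder counts of Irx1, Irx2 and Irx5 ran from 0 to 19 per library, which limits their differences.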
